A study of Mus musculus with 16 samples.

Results

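The genes described here are Klf2, Klf3, Klf4, Klf5, Klf6, Klf7, Klf9, Klf10, Klf12 and Klf15, members of the Krüppel-like factor (KLF) family, in the mouse preadipocyte line 3T3-L1. They were taken as all probes whose platform annotation names 1 of these 10 symbols and no other gene, which gave all 10 of them, among 19640 named genes, and 23 of the 38467 probes. The cells had been given dexamethasone (dex), a synthetic glucocorticoid, or the DMSO vehicle, and RNA was taken 2 h or 36 h later, with 4 biological replicates in each of the 4 groups. Each of the 16 arrays compared the cDNA of 1 sample, in Cy5, with a pool of the samples, in Cy3. All groups are of the same line, the labels name no agent beside dex and DMSO, and DMSO is the matched control at each time. A level below is a log2 ratio of sample over pool, so it can be set against the same probe on other arrays but not against another probe, and the base of the logarithm was taken as 2.

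KLF proteins are transcription factors that bind GC-rich and CACCC sequences through a set of zinc fingers at their C-terminal end. Several of them form part of the cascade that turns a preadipocyte into a fat cell. Klf4, Klf5, Klf6, Klf9 and Klf15 are known to promote it, whereas Klf2, Klf3 and Klf7 are known to hold it back. Klf10 is an early target of TGF-beta, and Klf12 is known as a repressor of the gene for the transcription factor AP-2alpha. Glucocorticoid is a usual component of the mixture that starts adipocyte differentiation in culture, and Klf9 and Klf15 are known glucocorticoid targets in other cells.

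RefSeq promoters, from 250 bases before to 50 after a gene's start, were at hand for 8 of the 10 genes, those of Klf5 and Klf10 being the exceptions. Of the members that changed at 2 h, Klf2, Klf3 and Klf9 have one, and these are printed 5′ to 3′ because 2 of these genes rose and 1 fell. Capitals mark GC boxes (GGGCGG) and CACCC boxes (CACCC) found on either strand.
Klf2, GRCm38.p6, chr8:72318812-72319111, + strand: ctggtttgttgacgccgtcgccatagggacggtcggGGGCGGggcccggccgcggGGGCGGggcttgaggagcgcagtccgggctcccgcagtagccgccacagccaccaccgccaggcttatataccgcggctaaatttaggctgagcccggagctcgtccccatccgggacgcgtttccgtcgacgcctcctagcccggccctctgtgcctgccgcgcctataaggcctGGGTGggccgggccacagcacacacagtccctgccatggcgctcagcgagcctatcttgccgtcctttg
Klf3, GRCm38.p6, chr5:64803271-64803570, + strand: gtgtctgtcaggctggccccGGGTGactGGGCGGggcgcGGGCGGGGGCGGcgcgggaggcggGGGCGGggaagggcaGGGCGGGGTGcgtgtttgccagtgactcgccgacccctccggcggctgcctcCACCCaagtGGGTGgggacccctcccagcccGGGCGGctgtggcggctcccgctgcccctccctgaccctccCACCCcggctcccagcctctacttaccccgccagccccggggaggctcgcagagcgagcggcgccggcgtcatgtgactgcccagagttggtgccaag
Klf9, GRCm38.p6, chr19:23140976-23141275, + strand: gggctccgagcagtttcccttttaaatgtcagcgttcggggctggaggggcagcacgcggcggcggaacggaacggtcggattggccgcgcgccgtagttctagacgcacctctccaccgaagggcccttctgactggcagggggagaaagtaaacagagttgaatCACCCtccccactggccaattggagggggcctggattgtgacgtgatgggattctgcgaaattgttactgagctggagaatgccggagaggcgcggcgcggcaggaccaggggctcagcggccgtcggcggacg
The Klf3 window held 6 GC boxes and 5 CACCC boxes, the Klf2 window 2 and 1, and the Klf9 window 0 and 1. A GC box was present in 6 of the 8 members' windows and in 35.7% of the 32851 RefSeq promoters of the same length, and a CACCC box in 6 of 8 against 57.5%. Bases G and C made up 45.7% (Klf12) to 76.7% (Klf3) of these windows, beside a median of 52.7% over all promoters. The palindromic core of a glucocorticoid response element was in 0 of the 8 windows and in 0.475% of all promoters, and the receptor half-site AGAACA was in 0 of 8 and in 19.0%. These counts describe the letters of a short window and not binding by any factor.

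The question of the study was which genes respond to dex early and late. At 2 h, 5 of the 10 genes changed: Klf2, Klf5 and Klf9 rose, and Klf3 and Klf10 fell. A gene is counted where at least 1 of its probes had an adjusted p under 0.05 in limma, which 3.18% of all 19640 named genes had (1.97% upward only, 1.21% downward only). At 36 h 6 genes rose (Klf2, Klf4, Klf5, Klf6, Klf9 and Klf12) and 1 fell (Klf7), beside 11.7% of all genes (6.75% upward only, 4.83% downward only). Klf2 and Klf9 passed at both times on the same probe. Klf15 passed at neither. Of the 23 probes, 3 rose and 3 fell at 2 h, where 1.43% and 0.793% of all probes did (2.22% in all). At 36 h 7 rose and 1 fell, beside 5.09% and 3.74% of all probes (8.83% in all). The 4 dex arrays lay wholly above or below the 4 DMSO arrays on 8 of the 23 probes at 2 h (5.88% of all probes) and on 10 at 36 h (26.8%). The median log2 change of the 23 probes was 0.08 at 2 h and 0.15 at 36 h, with medians over all probes of -0.01 and -0.004. Both comparisons lie within cultures of 1 cell line, in which fewer cells expressing a gene and less RNA per cell cannot be told apart.

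**Figure D1:**
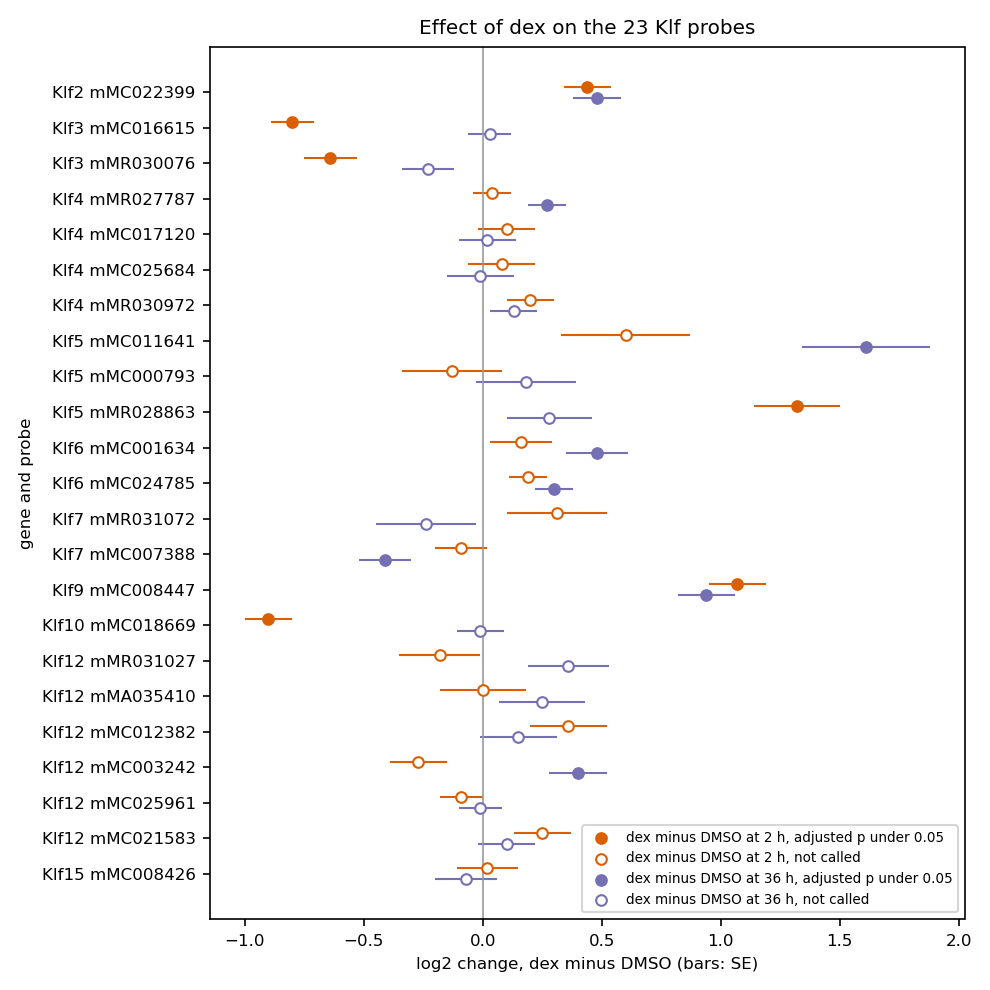
Log2 change with dex (horizontal axis, dex minus DMSO, bars are SE of the fitted contrast) for each of the 23 Klf probes (vertical axis) at 2 h in orange and 36 h in purple, filled where the adjusted p was under 0.05. Klf9 and Klf2 lie to the right at both times, while Klf3 and Klf10 lie to the left at 2 h, with later values near 0 except for -0.23 on 1 Klf3 probe.

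Klf9, which acts with C/EBPalpha on the Pparg2 promoter, had the smallest adjusted p of the members at both times. In DMSO at 2 h its ratios were -0.42, -0.30, -0.30 and -0.55, and in dex at 2 h they were 0.82, 0.49, 0.73 and 0.68. At 36 h they were -0.61, -0.71, -0.49 and -0.61 in DMSO and 0.43, 0.18, 0.65 and 0.10 in dex. All 8 dex arrays were above all 8 DMSO arrays, and the dex arrays at 36 h spread more (mean 0.34 ± 0.25, SD, n = 4) than those at 2 h (0.68 ± 0.14). Klf9 rose 2.10-fold at 2 h (log2 change 1.07 ± 0.12, SE, limma adjusted p = 4.03e-05) and 1.92-fold at 36 h (0.94 ± 0.12, limma adjusted p = 7.61e-05). The difference between these effects was -0.13 ± 0.16 (limma adjusted p = 0.779). The order of levels was dex 2 h, dex 36 h, DMSO 2 h and DMSO 36 h, and the arrays overlapped within each treatment but not between treatments.

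Klf2, a repressor of Pparg expressed in preadipocytes, showed the same order of treatments in a smaller range. Its ratios at 2 h were -0.08, -0.16, -0.20 and -0.30 in DMSO and 0.29, 0.28, 0.27 and 0.17 in dex. At 36 h they were -0.08, -0.24, -0.11 and -0.11 in DMSO and 0.40, 0.14, 0.63 and 0.23 in dex. Every dex array was again above every DMSO array, and DMSO at the 2 times overlapped, as did dex. Klf2 rose 1.36-fold at 2 h (0.44 ± 0.10, limma adjusted p = 0.0212) and 1.40-fold at 36 h (0.48 ± 0.10, limma adjusted p = 0.00473). The 2 h call ended without DMSO replicate 3 or without dex replicate 1, 2 or 3 of that time (adjusted p from 0.0558 to 0.0715) and in a fit of the 2-hour arrays alone (adjusted p = 0.0721), with values between 0.40 and 0.47 over all alternatives.

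Klf3, which represses Cebpa together with the corepressor CtBP, fell at 2 h on both of its probes. One probe (mMC016615) is annotated to a cDNA clone alone, here called a clone probe, and the other (mMR030076) also to the RefSeq mRNA, here called an mRNA probe. The clone probe read 0.15, 0.00, 0.04 and 0.09 in DMSO at 2 h and -0.82, -0.60, -0.65 and -0.83 in dex at 2 h. At 36 h it read -0.47, -0.15, -0.20 and -0.37 in DMSO and -0.18, -0.24, -0.26 and -0.42 in dex. The early groups were far apart, and the late ones overlapped. The mRNA probe read 0.42, 0.30, 0.30 and 0.13 in DMSO at 2 h and 0.01, -0.48, -0.46 and -0.47 in dex, so that dex replicate 1 lay nearer to DMSO than the other dex arrays. At 36 h it read -0.09, 0.00, 0.04 and -0.07 in DMSO and -0.25, -0.25, -0.39 and -0.16 in dex, without overlap.

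The fall of Klf3 at 2 h was 1.74-fold on the clone probe (-0.80 ± 0.09, limma adjusted p = 6.12e-05) and 1.55-fold on the mRNA probe (-0.64 ± 0.11, limma adjusted p = 0.00277). At 36 h the values were 0.03 ± 0.09 (95% interval -0.16 to 0.22) and -0.23 ± 0.11 (limma adjusted p = 0.219). The effects at the 2 times differed on the clone probe by 0.82 ± 0.13 (limma adjusted p = 0.0019), and the mRNA probe gave 0.40 ± 0.15 (limma adjusted p = 0.237). In DMSO itself both probes were lower at 36 h than at 2 h on every array, by -0.37 ± 0.09 and -0.32 ± 0.11, without passing (limma adjusted p = 0.0803 and 0.233). The mRNA probe's fall at 2 h did not pass in a fit of the 2-hour arrays alone (-0.64, adjusted p = 0.0981). Its value at 36 h did pass in a fit of the 36-hour arrays alone (-0.23, adjusted p = 0.032) and with array weights (-0.22, adjusted p = 0.0156). Those settings called 18.2% and 38.4% of all probes at 36 h, beside 8.83% in the main fit. The mRNA probe's difference between times passed without dex 2 h replicate 1 (0.52, adjusted p = 0.0294) and with array weights (0.47, adjusted p = 0.0381). There 2.08% and 6.77% of all probes passed, beside 2.40% in the main fit. In the order of levels for both probes, DMSO at 2 h stood highest and dex at 2 h lowest.

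Klf10 followed a similar course. Its ratios were 0.69, 0.33, 0.74 and 0.39 in DMSO at 2 h and -0.44, -0.15, -0.42 and -0.45 in dex at 2 h. At 36 h they were 0.04, 0.05, 0.17 and -0.03 in DMSO and 0.14, -0.05, 0.07 and 0.02 in dex. The 2-hour groups lay on either side of the 36-hour arrays, which overlapped with each other. Klf10 fell 1.87-fold at 2 h (-0.90 ± 0.10, limma adjusted p = 6.42e-05) and had a value of -0.01 ± 0.10 at 36 h (95% interval -0.23 to 0.21). The effects differed by 0.89 ± 0.14 (limma adjusted p = 0.00288). Klf10 also fell in DMSO from 2 to 36 h, by 0.48 ± 0.10 (limma adjusted p = 0.0405). That last call was narrow. It ended in a fit of the DMSO arrays alone (adjusted p = 0.171), after scaling of the arrays (adjusted p = 0.186), with the replicate number as a block (adjusted p = 0.0714) and without any 1 of 11 arrays (adjusted p from 0.0537 to 0.156). Those arrays were DMSO 2 h replicates 1 and 3, dex 2 h replicates 1, 3 and 4, all 4 of DMSO 36 h, and dex 36 h replicates 1 and 4.

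**Figure D2:**
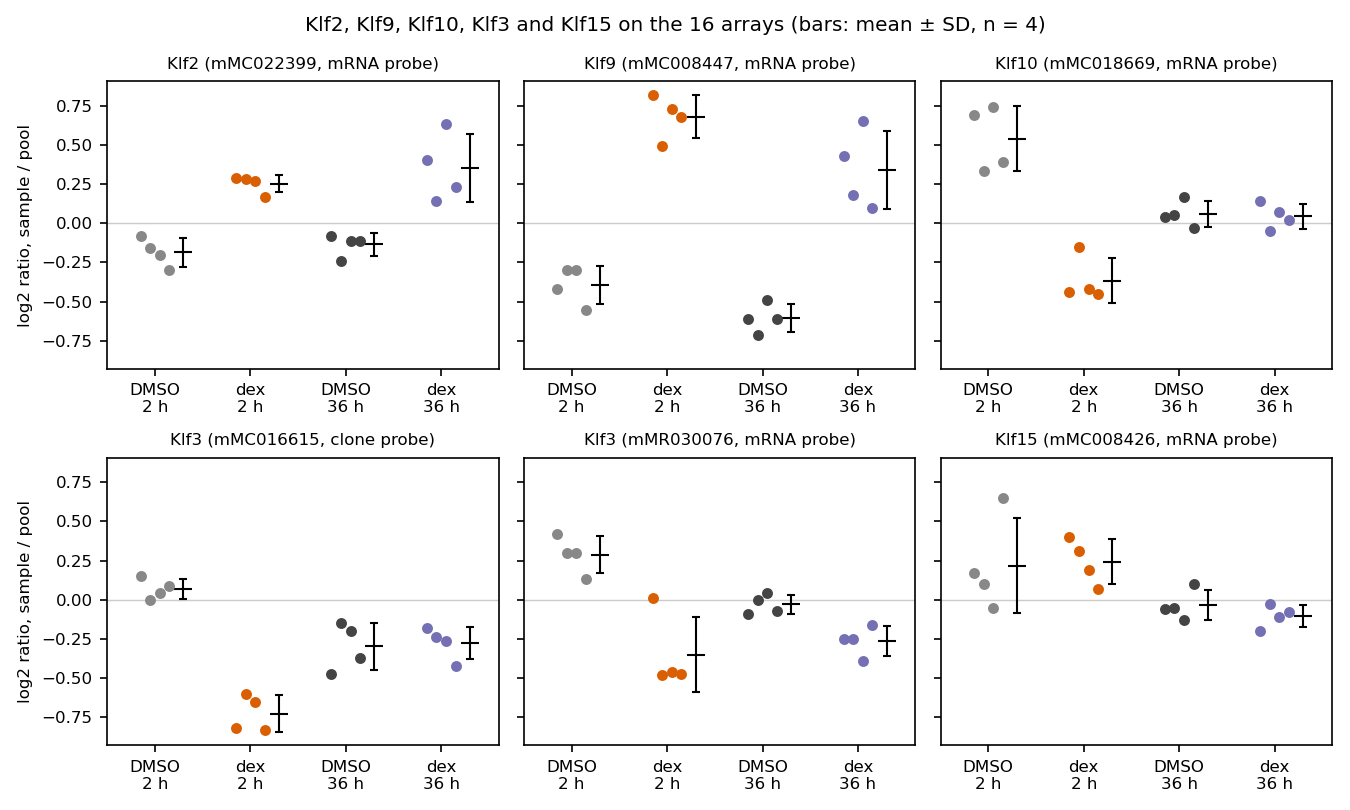
Log2 ratio of sample over pool (vertical axis) on each of the 16 arrays, by group (horizontal axis), for Klf2, Klf9, Klf10, both Klf3 probes and Klf15, where points are arrays in order of replicate number and bars are mean ± SD (n = 4). For Klf9 all dex arrays lie above 0 and all DMSO arrays below, for Klf10 only the 2-hour groups are apart, and for Klf15 the groups overlap at both times.

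Klf5, which C/EBPbeta and C/EBPdelta induce early in differentiation and which acts on the Pparg2 promoter, had 3 probes that did not read alike. The mRNA probe (mMR028863) gave -0.03, -0.15, -0.60 and -1.0 in DMSO at 2 h and 1.20, 0.85, 0.73 and 0.72 in dex. At 36 h it gave -0.14, -0.11, -0.05 and -0.08 in DMSO and 0.02, 0.33, 0.05 and 0.36 in dex. On this probe dex lay above DMSO at each time, but the early DMSO arrays ranged widely and the late ones hardly at all (SD 0.44 and 0.04). Klf5 rose 2.50-fold at 2 h on it (1.32 ± 0.18, limma adjusted p = 3.24e-04), and the value at 36 h was 0.28 ± 0.18 (limma adjusted p = 0.407). The effects differed by -1.04 ± 0.25 (limma adjusted p = 0.0374).

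A clone probe (mMC011641) of Klf5 had the later change. It read -0.33, -0.28, -0.56 and -0.59 in DMSO at 2 h and 0.27, -0.66, 0.42 and 0.63 in dex, where replicate 2 lay below the DMSO arrays. At 36 h it read -1.49, -1.05, -1.04 and -1.06 in DMSO and 0.23, 1.17, -0.15 and 0.55 in dex. The late groups were thus separated by a wide gap, with the DMSO arrays lowest of all 4 groups. The change at 2 h was 0.60 ± 0.27 (limma adjusted p = 0.436), and at 36 h this probe rose 3.06-fold (1.61 ± 0.27, limma adjusted p = 0.00124). The other clone probe (mMC000793) passed at neither time, with values of -0.13 ± 0.21 and 0.18 ± 0.21, and its early DMSO arrays ran from -0.58 to 0.47.

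The Klf5 calls at 2 h (mRNA probe) and at 36 h (clone probe mMC011641) passed under all 23 alternatives, with adjusted p up to 0.032 and 0.0066. The difference between times on the mRNA probe did not. It ended with the replicate number as a block (adjusted p = 0.0524), by the log-odds rule of the design text and without any 1 of 11 arrays (adjusted p from 0.0533 to 0.0944). Those arrays were DMSO 2 h replicate 3, all 4 of dex 2 h, all 4 of DMSO 36 h, and dex 36 h replicates 1 and 3.

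**Figure D3:**
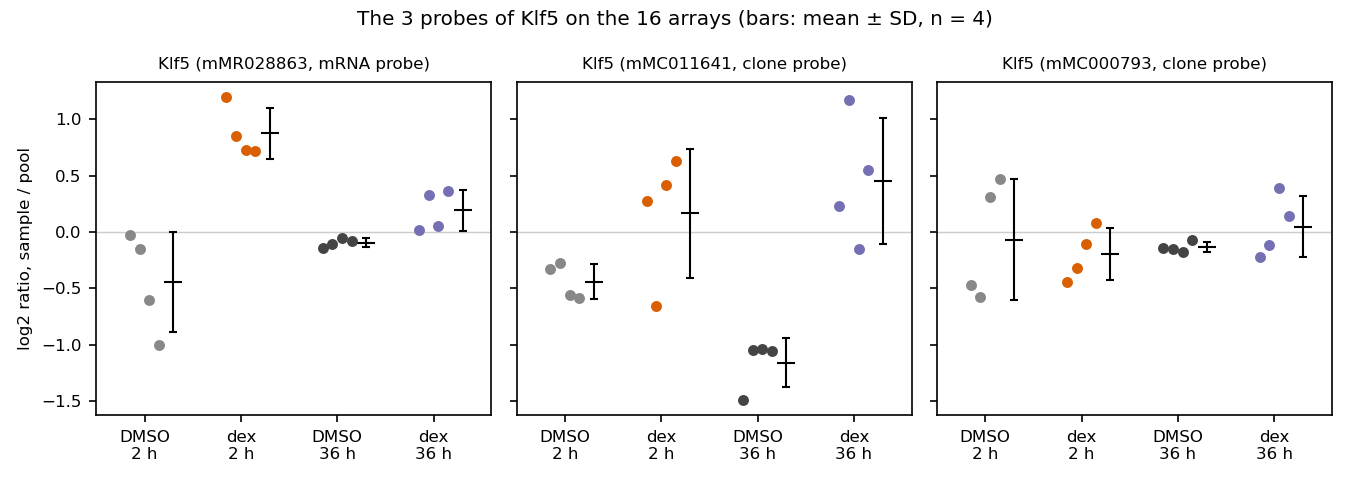
Log2 ratio of sample over pool (vertical axis) by group (horizontal axis) for the 3 Klf5 probes, where points are the 16 arrays and bars are mean ± SD (n = 4). The mRNA probe separates dex from DMSO most at 2 h (0.88 against -0.45), clone probe mMC011641 most at 36 h (0.45 against -1.16), and the groups overlap on mMC000793.

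Klf6, which represses the preadipocyte gene Dlk1, rose at 36 h on both of its mRNA probes. The first (mMC001634) gave -0.45, -0.33, -0.21 and -0.78 in DMSO at 36 h and -0.09, 0.31, 0.15 and -0.22 in dex, with 1 dex value just inside the DMSO range. The second (mMC024785) gave -0.18, -0.23, -0.16 and -0.28 in DMSO and 0.09, 0.18, -0.10 and 0.19 in dex, without overlap. At 2 h the first read -0.06, -0.15, -0.02 and 0.16 in DMSO and 0.00, 0.20, 0.29 and 0.08 in dex. The second read 0.04, -0.01, 0.00 and -0.12 in DMSO and 0.08, 0.26, 0.16 and 0.16 in dex at 2 h. The late changes were 0.48 ± 0.13 (limma adjusted p = 0.0361) and 0.30 ± 0.08 (limma adjusted p = 0.0269), and the early values 0.16 ± 0.13 and 0.19 ± 0.08 (limma adjusted p = 0.723 and 0.375). Both probes had their lowest level in DMSO at 36 h, apart from DMSO at 2 h, and the other 3 groups overlapped with their neighbours in the order. On the second probe, however, all dex arrays at 2 h lay above all DMSO arrays at 2 h.

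Klf4, which acts upstream of Cebpb together with Egr2 (Krox20), had 4 mRNA probes, of which 1 (mMR027787) passed at 36 h. That probe read 0.01, 0.20, 0.22 and 0.08 in DMSO and 0.16, 0.09, 0.26 and 0.17 in dex at 2 h. At 36 h it read -0.25, -0.14, -0.16 and -0.12 in DMSO and 0.02, 0.24, 0.04 and 0.11 in dex. The late rise was 0.27 ± 0.08 (limma adjusted p = 0.0403), from a DMSO level below every array at 2 h. The other 3 probes gave -0.01 to 0.13 at 36 h, and all 4 gave 0.04 to 0.20 at 2 h, with no adjusted p under 0.459.

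Klf7, an inhibitor of adipocyte differentiation when overproduced, fell at 36 h on its clone probe (mMC007388). The ratios were 0.13, 0.27, 0.13 and 0.17 in DMSO and -0.30, -0.01, -0.52 and -0.09 in dex at 36 h, without overlap. At 2 h they were 0.45, 0.10, 0.17 and 0.10 in DMSO and 0.00, 0.21, 0.08 and 0.17 in dex. The changes were -0.41 ± 0.11 at 36 h (limma adjusted p = 0.0333) and -0.09 ± 0.11 at 2 h (limma adjusted p = 0.826). The mRNA probe (mMR031072) gave -0.24 ± 0.21 and 0.31 ± 0.21, and its early DMSO arrays ran from -0.53 to 0.58.

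Klf12 had 6 probes, of which 1 clone probe (mMC003242) passed at 36 h. It read -0.17, -0.19, -0.15 and -0.18 in DMSO and 0.33, 0.25, 0.36 and -0.01 in dex at 36 h. At 2 h it read 0.18, 0.32, -0.02 and 0.40 in DMSO and -0.08, 0.22, -0.27 and -0.07 in dex. Dex thus lay above DMSO late and mostly below it early. The changes were 0.40 ± 0.12 at 36 h (limma adjusted p = 0.042) and -0.27 ± 0.12 at 2 h (limma adjusted p = 0.395), and they differed by 0.67 ± 0.16 (limma adjusted p = 0.0407). The other 5 probes gave -0.01 to 0.36 at 36 h and -0.18 to 0.36 at 2 h, and none passed at either time. One of them (mMR031027, 0.36 ± 0.17 at 36 h, limma adjusted p = 0.253) passed in a fit of the 36-hour arrays alone (adjusted p = 0.0215), with array weights (adjusted p = 0.0016), after scaling (adjusted p = 0.0318) and without DMSO 2 h replicate 4 (adjusted p = 0.012). Those settings called 18.2%, 38.4%, 16.4% and 12% of all probes at 36 h, beside 8.83% in the main fit.

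The late calls of Klf4, Klf6, Klf7 and Klf12 were close to the threshold. Each ended when 1 array was left out. For Klf4 these were each of the 8 arrays at 36 h and dex 2 h replicates 3 and 4 (adjusted p from 0.0513 to 0.131). For Klf12 they were the same 36-hour arrays except dex replicate 4, and dex 2 h replicates 1 and 4 (adjusted p from 0.0529 to 0.137). Both Klf6 probes lost the call without DMSO 36 h replicate 1, 2 or 4 or dex 36 h replicate 1 or 2, and further without dex 36 h replicate 3 (mMC001634, adjusted p from 0.0601 to 0.114) or replicate 4 (mMC024785, adjusted p from 0.0505 to 0.0839). Klf7 lost it without any 1 of the 4 DMSO arrays or dex replicate 1 or 3 at 36 h (adjusted p from 0.0619 to 0.115). The replicate number as a block ended the calls of Klf4 (adjusted p = 0.0564), Klf12 (adjusted p = 0.059) and Klf6 on mMC024785 (adjusted p = 0.0506), and a fit of the 36-hour arrays alone that of Klf6 on mMC001634 (adjusted p = 0.0505). The log-odds rule of the design text kept none of the 4 genes at 36 h, but kept Klf2, Klf5 and Klf9. The Klf12 difference between times ended with the block (adjusted p = 0.0691), by the log-odds rule and without any 1 of 12 arrays (adjusted p from 0.0538 to 0.102). Those arrays were DMSO 2 h replicates 2 and 4, dex 2 h replicates 1, 3 and 4, all of DMSO 36 h, and dex 36 h replicates 1, 2 and 3. On the called probes of Klf4 (0.23 ± 0.11), Klf6 (0.32 ± 0.19 and 0.11 ± 0.11) and Klf7 (-0.32 ± 0.16) the difference between times did not pass (limma adjusted p from 0.37 to 0.711).

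**Figure D4:**
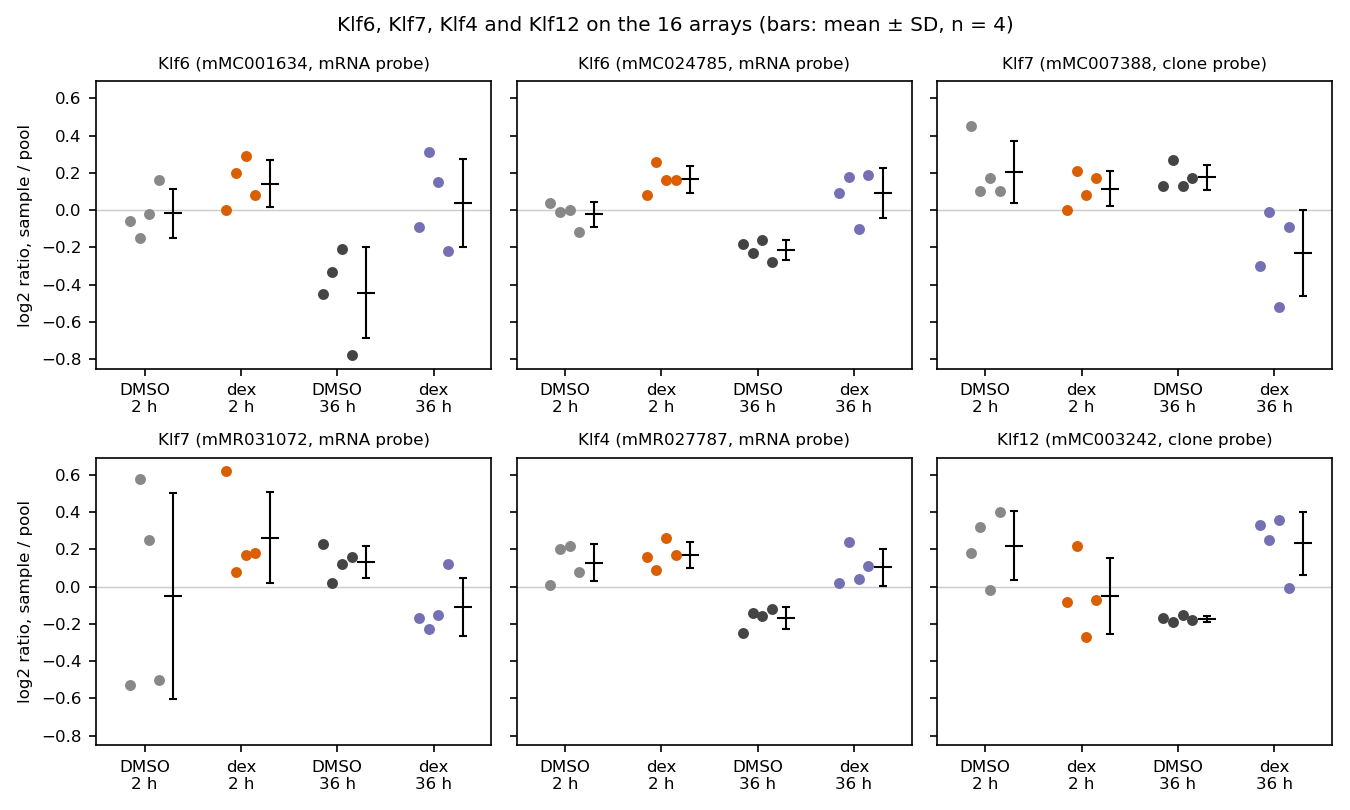
Log2 ratio of sample over pool (vertical axis) by group (horizontal axis) for both Klf6 and both Klf7 probes and for the Klf4 and Klf12 probes that passed at 36 h, where points are the 16 arrays and bars are mean ± SD (n = 4). On the Klf6, Klf4 and Klf12 probes DMSO at 36 h is the lowest group, and on Klf7 probe mMC007388 dex at 36 h is, with a mean of -0.23.

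Klf15, which promotes adipocyte differentiation and transcription of the glucose transporter gene Slc2a4, had a single mRNA probe. It read 0.17, 0.10, -0.05 and 0.65 in DMSO and 0.40, 0.31, 0.19 and 0.07 in dex at 2 h. At 36 h it read -0.06, -0.05, -0.13 and 0.10 in DMSO and -0.20, -0.03, -0.11 and -0.08 in dex. The groups overlapped at each time. The differences were 0.02 ± 0.13 at 2 h (95% interval -0.24 to 0.29, limma adjusted p = 0.973) and -0.07 ± 0.13 at 36 h (-0.34 to 0.19, limma adjusted p = 0.877). No probe brightness was analysed here, so a ratio near 0 cannot be told from a transcript too weak to measure, for Klf15 as for the other probes that did not pass.

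From 2 to 36 h in DMSO, 0 of the 10 genes rose and 1 fell in limma, Klf10. Of all genes 0.270% rose alone and 0.993% fell alone, 1.26% changed in all, and 0.621% of all probes fell. At an unadjusted p under 0.05 in limma, 0 members rose and 6 fell. The share of all genes at that unadjusted threshold was not counted, so these counts cannot be set against a background. Genes with several probes, 6 of the 10 members and 6325 of all 19640 genes, have more chances to be counted. The values of 19 of the 23 probes were below 0, or 82.6%, against 53.1% of all probes, and the medians were -0.21 and -0.013. On 8 of the 23 probes the DMSO arrays of the 2 times did not overlap, as on 10.5% of all probes. The late dex effects on Klf4, Klf6 and Klf12 and on Klf5 probe mMC011641 were measured from DMSO levels that lay below those at 2 h. Those DMSO differences were -0.29 ± 0.08, -0.43 ± 0.13 and -0.19 ± 0.08 (both Klf6 probes), -0.39 ± 0.12 and -0.72 ± 0.27, and none passed (limma adjusted p from 0.104 to 0.363). Both comparisons use the same 4 DMSO arrays at 36 h. Probes picked for a late rise thus tend to show such a difference, and its part in the late effects was not tested. The dex effect differed between times for 4 genes, each on 1 probe, upward for Klf3, Klf10 and Klf12 and downward for Klf5. Of all genes 3.48% had such a difference, 2.12% upward only. The other Klf5 probes pointed upward without passing, with 1.01 ± 0.38 on mMC011641 and 0.32 ± 0.30 on mMC000793 (limma adjusted p = 0.24 and 0.69). The other Klf12 probes gave -0.21 to 0.54, and none passed. Over the 23 probes the effect differed on 4, 3 of them upward, where 2.40% and 1.47% of all probes did.

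Of 16 other KLF and Sp genes 14 were measured, on 23 probes, and 0 passed at either time in limma (at an unadjusted p under 0.05, 3 at 2 h and 0 at 36 h, a threshold at which all genes were not counted). With 3.18% and 11.7% of all genes called at these times, a count of 0 among 14 genes is near the background. Their median log2 change was -0.08 at 2 h and -0.01 at 36 h. Their largest dex value was that of Klf8, at 1.09 ± 0.67 at 36 h (limma adjusted p = 0.396).

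Genes that regulate, bind or answer to these factors in fat cells were taken as a list of 24, all measured. At 2 h 4 rose and 3 fell, and at 36 h 7 rose and 1 fell, where 3.18% of all genes changed at 2 h (1.97% upward only, 1.21% downward only) and 11.7% at 36 h (6.75% and 4.83%). The median log2 changes over their 38 probes were -0.01 and 0.15, beside -0.01 and -0.004 over all probes. Of the inducers of Klf5, Cebpb rose by 1.02 ± 0.10 and Cebpd by 0.93 ± 0.13 at 2 h, and both by 0.87 at 36 h (± 0.10 and ± 0.13). Cebpa, a known target of repression by Klf3, fell by 0.55 ± 0.13 at 2 h (limma adjusted p = 0.0309). Its other probe gave -0.42 ± 0.13 (limma adjusted p = 0.142). Pparg, a target of Klf2, Klf5 and Klf9, rose at 36 h on 1 of 3 probes (0.82 ± 0.15, limma adjusted p = 0.00247), and at 2 h that probe gave -0.22 ± 0.15. Dlk1, the target of Klf6, fell at 36 h on both probes, by 0.86 ± 0.17 and 0.66 ± 0.14. Links between the Klf genes and the genes of this list were not tested.

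Among the other genes of that list, Fbxw7, whose product marks Klf5 for degradation, rose on 1 of 4 probes at 2 h (0.77 ± 0.13), the others giving -0.29 to 0.46. Fabp4, a fatty acid carrier and Pparg target, rose by 1.60 ± 0.31 at 2 h and 2.59 ± 0.31 at 36 h. Rxra, encoding the partner of PPARgamma, rose on 1 of 2 probes at 36 h (0.65 ± 0.11), and its other probe gave -0.35 ± 0.21. Bcat2, a branched-chain amino acid enzyme under Klf15 in muscle, rose by 0.81 ± 0.11 at 36 h. Lpl, encoding lipoprotein lipase, fell by 0.47 ± 0.08 at 2 h and rose by 0.34 ± 0.08 at 36 h on 1 of 2 probes, and Il6 fell by 0.59 ± 0.12 at 2 h. In DMSO from 2 to 36 h, 3 genes of the list fell and 0 rose (0.993% and 0.270% of all genes), on the probes that were higher with dex at 36 h. Pparg fell by 0.73 ± 0.15 (limma adjusted p = 0.0332), Lpl by 0.46 ± 0.08 (limma adjusted p = 0.0105) and Bcat2 by 0.51 ± 0.11 (limma adjusted p = 0.0486). Fabp4 gave -1.1 ± 0.31 without passing (limma adjusted p = 0.142), its DMSO arrays at 36 h all lying below those at 2 h. On the other probes called with dex at 36 h, Cebpb, Cebpd and Rxra gave -0.36 to -0.11, and Dlk1 gave 0.68 and 0.47. These DMSO differences and the late dex effects share the DMSO arrays at 36 h and are not independent. The part of the DMSO differences in the late effects was not tested. Slc2a4, the target of Klf15, gave 0.15 ± 0.17 at 2 h and -0.16 ± 0.17 at 36 h, and Egr2 gave 0.63 ± 0.25 and -0.66 ± 0.25 (limma adjusted p = 0.35 and 0.131).

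Some of these calls were narrow as well. A fit of the 2-hour arrays alone ended those of Cebpa (adjusted p = 0.198), Fbxw7 (adjusted p = 0.0864), Lpl (adjusted p = 0.108) and Il6 (adjusted p = 0.152) at 2 h. Cebpa was also lost with the replicate block, by the log-odds rule and without DMSO 2 h replicate 1 or 3 or dex 2 h replicate 1, 3 or 4 (value between -0.63 and -0.42). The late rise of Lpl was lost by the log-odds rule and without DMSO 36 h replicate 1 or 4 or dex 36 h replicate 1 (adjusted p up to 0.0671). The falls in DMSO ended in a fit of the DMSO arrays alone for all 3 genes (adjusted p up to 0.13 for Pparg, 0.128 for Lpl and 0.178 for Bcat2 over all alternatives). Without DMSO 36 h replicate 4 all 3 ended, and those of Pparg and Bcat2 also without any other array of DMSO 36 h, DMSO 2 h replicate 1 or 2, or dex 2 h replicate 3 or 4. Pparg lost it further without DMSO 2 h replicate 3, and Bcat2 without dex 2 h replicate 1 or dex 36 h replicate 1 or 2, with array weights and with the replicate block. Calls of Cebpb, Cebpd, Fabp4, Pparg, Dlk1, Rxra and Bcat2 with dex passed under all 23 alternatives.

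**Figure D5:**
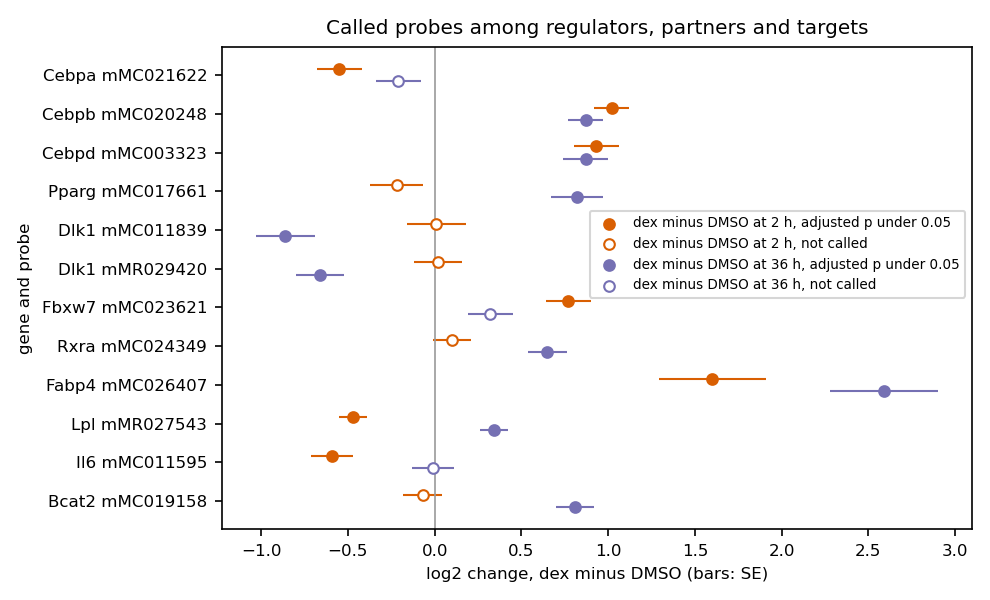
Log2 change with dex (horizontal axis, bars are SE) for the probes of regulators, partners and targets of the Klf genes (vertical axis) that passed at 2 h (orange) or 36 h (purple), filled where the adjusted p was under 0.05. Cebpb and Cebpd are higher at both times, Pparg, Rxra and Bcat2 at 36 h, and Lpl is lower at 2 h and higher at 36 h.

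Genes whose 16 ratios ran most like those of a member were looked up as a description over arrays that share 1 pool and 4 groups, so that any gene moved by the same treatment scores highly. Nearest to Klf9 were Tsc22d3 (Pearson r = 0.982), Ccn1 (r = 0.979) and Cdkn1a (r = 0.977). Tsc22d3, on another of its probes, was also nearest to Klf2 (r = 0.964), followed by Apcdd1 (r = 0.957) and B630019K06Rik (r = 0.95). Klf3 had Slc40a1, Bahcc1 and Cdkn2b (r = 0.928 to 0.918), and Klf10 had Stambpl1, Bahcc1 and S1pr2 (r = 0.945 to 0.933), so Bahcc1 stood in both sets of 3 on different probes. Klf5, on its mRNA probe, had Peli1, Rnf19b and Nfil3 (r = 0.947 to 0.942). The nearest to Klf6 were Extl1, Sema6d and Vcan (r = 0.948 to 0.925) and to Klf7 Stx16, Tnrc6b and Brd3 (r = 0.97 to 0.964). Likeness was weaker for Klf4, with Ccnd3, Fasn and Lhx8 (r = 0.866 to 0.844), and for Klf12, with Nek2, 9430079B08Rik and Stom (r = 0.888 to 0.867).

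The 2-hour arrays were noisier than the 36-hour ones, with residual SDs over all probes of 0.168 to 0.435 against 0.108 to 0.205. DMSO 2 h replicate 4 had the highest and a mean correlation of -0.104 with the rest of its group, and without it the 2 h calls of Klf2, Klf3, Klf5, Klf9 and Klf10 all stood. Array medians lay between -0.0106 and 0.00832. Ratios to a pool give no level, so the labelled cell type could be checked through changes alone. Of 7 measured preadipocyte or fibroblast markers 1 fell at 2 h and 4 at 36 h, and of 7 adipocyte markers 1, Fabp4, rose at both times. Of all genes 1.21% fell alone at 2 h and 4.83% at 36 h, and 1.97% and 6.75% rose alone. In limma 0 of 5 macrophage markers passed at 2 h (0 at an unadjusted p under 0.05). At 36 h 1, Lyz2, fell, on 1 of 3 probes (-0.56 ± 0.09, the others -0.25 and -0.23), and 2 fell at an unadjusted p under 0.05 in limma. Of 4 endothelial markers 0 passed at either time (0 unadjusted). The share of all genes under the unadjusted threshold was not counted. The part of the marker changes in the Klf results was not tested.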

How the data were processed

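Cy5 and Cy3 cDNA arrays of 16 samples were measured, and each deposited value is a ratio on a log scale, taken as log2, 1 per probe and array. Per the labels' dyes the direction is Cy5 over Cy3; the submitters' processing notes name limma, while the log base, background correction and normalization were stated in no source used here. No further normalization was applied. The 131 missing values touched 0 of the 23 Klf probes. Depth does not apply to arrays, and their number limits the precision.

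In R 4.3.3, limma 3.58.1 fitted 4 group means per probe over all 16 arrays (lmFit, eBayes, 12 residual and 3.19 prior degrees of freedom), so each probe has 1 spread for both times. Benjamini-Hochberg adjustment ran over 38467 probes per comparison, with a threshold of 0.05. The fit was also run on simulated data, but no outcome of that run is given here. Nothing is concluded from it on whether 1 spread suits both times. Genes were named by the platform annotation, with symbols of other genes updated by Entrez identifier from RefSeq (GRCm38.p6). Promoters and motifs are from RefSeq, GRCm38.p6. The rule for named genes took every probe of the 10 members, the other family and partner genes that passed with dex, and for each changed member the 3 genes with the highest r. It numbered probes by mean ratio; identifiers are used instead. Klf8, Slc2a4 and Egr2 fall outside the rule and were named after their values were seen. The members and lists were chosen with earlier results of these data known. The labels call the replicates biological and say no more. Alternatives were fits of the compared groups alone, array weights, median centring, scaling, a replicate block, robust eBayes, the log-odds rule, each array left out and, added after seeing the data, mRNA probes alone.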

Additional observations from a re-analysis of the deposited data

Results flagged for a closer look

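The dex effect differed between 2 and 36 h on 4 Klf probes by the test of the difference itself (36 h minus 2 h). The differences were 0.82 ± 0.13 for Klf3 probe mMC016615 (limma adjusted p = 0.0019), 0.89 ± 0.14 for Klf10 (limma adjusted p = 0.00288), -1.04 ± 0.25 for Klf5 probe mMR028863 (limma adjusted p = 0.0374) and 0.67 ± 0.16 for Klf12 probe mMC003242 (limma adjusted p = 0.0407). The first 2 passed under all 22 alternatives.

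In 8 of 92 groups of 4 arrays, 1 array stood far from the other 3, where chance gives about 1 in 20. In dex at 2 h these were Klf2 in replicate 4 (0.17, others 0.27 to 0.29), Klf3 probe mMR030076 in replicate 1 (0.01, others -0.48 to -0.46) and Klf10 in replicate 2 (-0.15, others -0.45 to -0.42). In dex at 2 h they were also Klf12 probes mMC012382 (0.90, others 0.02 to 0.14) and mMC021583 (0.71, others 0.16 to 0.20) in replicate 2, and mMC025961 in replicate 3 (0.01, others 0.07 to 0.08). The others were Klf12 probe mMR031027 in DMSO 2 h replicate 4 (0.90, others -0.12 to 0.01) and Klf5 probe mMC011641 in DMSO 36 h replicate 1 (-1.49, others -1.06 to -1.04).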

How the results depend on the processing

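The 5 member genes called at 2 h became 4 to 5 over the 24 alternatives. At 36 h the 7 genes became 3 by the log-odds rule, 4 on mRNA probes alone and 3 to 7 when 1 array was left out, and 8 (6 up, 2 down) both in a fit of the 36-hour arrays alone and with array weights. The 4 genes whose dex effect differed between times became 2 with the replicate block, by the log-odds rule and on mRNA probes alone, and 2 to 4 with 1 array left out. The 1 gene that fell in DMSO became 0 in a fit of the DMSO arrays alone, after scaling and with the replicate block, 2 with array weights, and 0 to 1 with 1 array left out. Of 19 probe calls 9 stood under every alternative fit or rule, 10 ended under at least 1, and 0 reversed, while 7 probe values that had not passed did so under at least 1. The replicate numbers are not stated to pair arrays. Deviations of same-numbered arrays from different groups correlated at -0.103 to 0.344, above 0.1 in 5 of 24 pairs (median -0.003). Those of other-numbered arrays correlated at -0.313 to 0.234, above 0.1 in 6 of 72 pairs (median 0.001). Whether any arrays were paired cannot be told from these values.

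Over all probes, the 855 calls at 2 h became 374 in a fit of the 2-hour arrays alone. At 36 h 3396 became 6985 in a fit of the 36-hour arrays alone, 14765 with array weights, 6300 after scaling, and 1461 by the log-odds rule. Leaving out DMSO 36 h replicate 1, 2 or 4 or dex 36 h replicate 1 or 3 gave 1874 to 2181. Differences between times went from 925 to 2606 with weights, 1999 after scaling and 614 without DMSO 36 h replicate 2. DMSO changes went from 314 to 122 alone, 646 with weights, 917 after scaling, 683 without DMSO 2 h replicate 4, and 156 to 180 without any 1 of the 4 DMSO 36 h arrays. The cause was not tested. With weights, which called 38.4% of all probes at 36 h, further probes passed at that time, of Klf3 (-0.22), Klf4 (0.15), Klf7 (-0.26) and Klf12 (0.35 and 0.31).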
